A study of Mus musculus with 3 samples.

Results

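Glycolysis and hypoxia response genes were followed as 32 members across tumour-associated macrophages of the mouse mammary gland. The members were taken by name: 14 enzymes of glycolysis and lactate formation and 18 other genes, which comprise carriers of glucose and lactate, mitochondrial regulators, the oxygen-sensing machinery and further targets of hypoxia-inducible factors. All 32 of the 31053 annotated features with these names were found, and all 32 had UMIs (unique molecular identifiers, each marking 1 captured RNA molecule) in each of the 3 libraries. The libraries came from 3 mice of strain FVB/N-Tg(MMTVPyVT)634Mul/J, in which the MMTV promoter drives polyoma middle T antigen (PyMT) in the mammary epithelium, and each library holds cells of 1 adenocarcinoma of 750 mm3. The tumours were digested with collagenase and DNase, cells were sorted as CD45+ Ly6G- CD11b+ F4/80+, and RNA was counted with 10x Genomics 3' chemistry. All mice belong to 1 group with no untreated or normal-gland arm, so each comparison set cells of a mouse against other cells of the same mouse.

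Glycolysis splits glucose to pyruvate in the cytosol, and lactate dehydrogenase then regenerates the cofactor that keeps the pathway running when mitochondria do not take up the pyruvate. When oxygen is scarce, prolyl hydroxylases no longer mark the alpha subunits of hypoxia-inducible factors for destruction. The stabilised factors raise the transcription of glucose carriers, of most glycolytic enzymes, of mitophagy receptors and of the hydroxylases themselves. In macrophages the same factor, HIF-1, is also raised by inflammatory stimuli at normal oxygen, and solid tumours hold macrophages in both poorly perfused and perivascular areas.

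The promoters of 4 members are shown. Egln3, Ankrd37 and Bnip3 are the 3 members with the largest differences in the comparison by Arg1 RNA, and Hk2 is a member that did not pass the test there. Each run is the 250 bases before the annotated start, from RefSeq on GRCm38, read 5′ to 3′ along the gene's own strand, with matches to the letters ACGTG in capitals. ACGTG is a form of the core of the hypoxia response element to which hypoxia-inducible factors bind, and other forms were not searched. Both strands were searched, so that ACGTG also reads as CACGT and the palindrome CACGTG counts as 2 overlapping matches.
Egln3: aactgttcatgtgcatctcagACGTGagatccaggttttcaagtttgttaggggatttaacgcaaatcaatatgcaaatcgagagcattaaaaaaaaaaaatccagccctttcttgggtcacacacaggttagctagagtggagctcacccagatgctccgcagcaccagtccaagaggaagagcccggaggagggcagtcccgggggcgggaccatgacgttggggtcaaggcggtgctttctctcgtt
Ankrd37: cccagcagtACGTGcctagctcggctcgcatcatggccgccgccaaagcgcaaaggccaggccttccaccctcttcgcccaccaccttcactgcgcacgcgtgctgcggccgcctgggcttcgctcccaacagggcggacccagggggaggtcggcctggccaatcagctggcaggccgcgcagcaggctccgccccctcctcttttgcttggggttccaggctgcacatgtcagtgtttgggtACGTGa
Bnip3: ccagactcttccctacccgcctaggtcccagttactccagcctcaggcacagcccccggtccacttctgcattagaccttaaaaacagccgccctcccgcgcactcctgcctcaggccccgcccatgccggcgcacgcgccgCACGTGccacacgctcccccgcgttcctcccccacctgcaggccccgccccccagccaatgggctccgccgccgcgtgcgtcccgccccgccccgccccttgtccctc
Hk2: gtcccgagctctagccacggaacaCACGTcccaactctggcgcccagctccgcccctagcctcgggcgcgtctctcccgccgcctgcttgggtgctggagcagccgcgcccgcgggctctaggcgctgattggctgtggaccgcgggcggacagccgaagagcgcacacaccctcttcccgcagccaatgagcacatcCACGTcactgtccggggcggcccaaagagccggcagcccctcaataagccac
The Egln3 window at chr12:54203875-54204124 (minus strand) held 1 match, and the windows of Ankrd37 at chr8:45999851-46000100, Bnip3 at chr7:138909507-138909756 and Hk2 at chr6:82774455-82774704, all on the minus strand, held 2 each. A window was at hand for 29 members, and 20 of these genes (69.0%) held at least 1 match, against 18.5% of all 27025 genes with a window and 26.5% of the 7752 tested ones. Counted by window, 56.1% of the 41 member windows held a match, against 16.6% of all 32851 windows. Of the members with a window, 14 of the 21 that were higher in Arg1-positive cells held a match, and so did 6 of the 8 that did not pass that test. The members were taken by name, with targets of hypoxia-inducible factors among them, so a share above that of all genes is no test of the members. A match is a description of the letters in the window and no evidence of binding.

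Of 1074, 2470 and 7429 barcodes in mice 1, 2 and 3, the rule kept those with 500 or more genes and no more than 15% of UMIs from mitochondrial genes, which left 663, 2108 and 6978 cells with a median of 15014, 13600 and 9319 UMIs. The mitochondrial limit was passed by 36.0% of the barcodes of mouse 1, against 12.1% in mouse 2 and 4.13% in mouse 3. Mice 2 and 3 shared 8 barcodes and the other pairs shared 0. Clustering, with the members and a list of 70 further pathway genes held out, gave 13 macrophage classes with 9684 cells, next to 56 tumour epithelium-like and 9 T cell-like cells that were set aside. In all 13 classes each of the 8 macrophage lineage markers had at least 1 UMI, with summed levels of 6351 to 22899 CPM (UMIs of a gene scaled to an equal total in every sum). The markers gave names to 6 classes, of which the inflammatory-like, LYVE-1 resident-like and cycling-like ones join 2 clusters each. The other 7 are given by cluster number, which does not mean that no markers stood out. Of the LYVE-1 list 10 of 12 markers did so in cluster 16, and in cluster 3 there were 8 of the inflammatory and 8 of the LYVE-1 list. No class took the name hypoxia-like: of the 10 markers set for it, at most 3 stood out in any macrophage class, in the lipid-associated-like one.

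**Figure D1:**
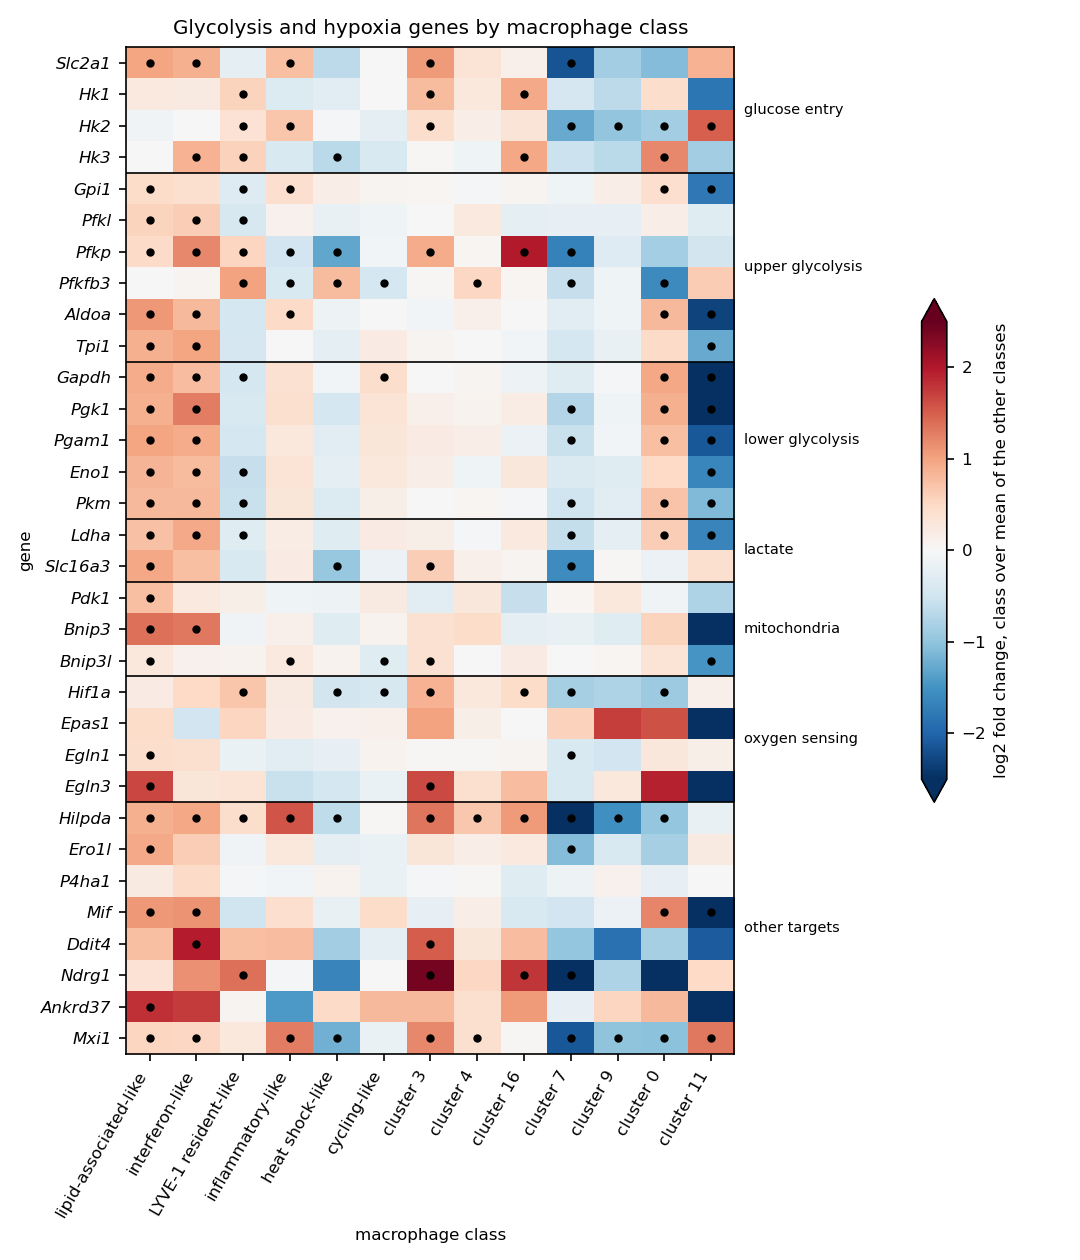
Difference in log2 level between each macrophage class (columns) and the mean of the other classes, for the 32 members (rows, ordered by role); colour gives the log2 fold change and dots mark members that passed an adjusted p of 0.05 in edgeR. The lipid-associated-like column has 23 dots, all higher, and the cluster 7 column has 15, all lower.

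Within the mice, 29 of the 32 members differed among the 13 classes in edgeR's quasi-likelihood F test of all classes together (Benjamini-Hochberg adjusted p under 0.05), where 74.2% of the 9278 tested genes did. The remaining members were Pdk1, a kinase that keeps pyruvate out of the mitochondria, Epas1, the alpha subunit of HIF-2, and P4ha1, a collagen prolyl hydroxylase, with adjusted p of 0.0596, 0.411 and 0.112. The members did not move as 1 block: 24 were higher in at least 1 class and lower in at least 1 other, 6 were called in the higher direction alone, and Epas1 and P4ha1 were called in no class. In the class comparisons the tested genes leave out the variable genes used in clustering, while the members were held out of clustering and all stayed in. The shares over all tested genes thus come from a set short of variable genes, and may be too low as a background for the members. Each class was set against the unweighted mean of the other classes on the log2 scale with the mouse as a term. The levels quoted for the other classes are plain means of CPM over those classes in a mouse, and can differ from that contrast in size. A single other class can lie beyond such a mean, so values that lie apart from it need not lie apart from every class.

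The lipid-associated-like class (1360 cells) had the broadest rise. Of its 12 markers 7 stood out, Trem2, Spp1, Cd9 and Fabp5 among them. In this class 23 of the 32 members were higher and 0 were lower, where 10.4% and 1.69% of all tested genes were. Each of the 23 was higher in all 3 mice. At an unadjusted p under 0.05, 24 members were higher and 0 lower, and DESeq2 called 19 higher and 0 lower. By role, the rise took in 5 of 5 enzymes of lower glycolysis, 5 of 6 genes of upper glycolysis, both lactate genes, all 3 mitochondrial genes, 2 of 4 oxygen-sensing genes and 5 of 8 further targets, but 1 of 4 genes of glucose entry. The median log2 fold change was 0.75 over the members and 0.14 over all tested genes.

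The largest differences were in targets of hypoxia-inducible factors outside glycolysis. Ankrd37, an ankyrin repeat protein, had 23.0, 3.81 and 7.06 CPM in the lipid-associated-like cells of mice 1, 2 and 3, against 5.78, 1.81 and 3.31 CPM in the mean of their other classes (log2 fold change 1.83, SE 0.39, adjusted p = 0.00128 in edgeR). Bnip3, a receptor for the removal of mitochondria, had 184, 32.6 and 57.3 CPM against 47.0, 16.1 and 31.7 CPM (1.37, SE 0.21, adjusted p = 0.000143 in edgeR). Mouse 1 was highest in both genes and in both sets of cells, and in every mouse the class was above the mean of its own other classes. Egln3, an oxygen-sensing prolyl hydroxylase that hypoxia itself induces, was 1.67 higher on the log2 scale (SE 0.52, adjusted p = 0.0269 in edgeR) but rests on 49 UMIs in this class. It had 7.09, 3.12 and 2.90 CPM there and 2.96, 0.332 and 1.82 CPM in the other classes.

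The enzymes rose less and more evenly. Many of them, Gapdh among others, have processed pseudogenes, and the treatment of reads shared with such copies is not given in the sources used here. Aldoa, the aldolase that splits the sugar, had 1253, 665 and 868 CPM in lipid-associated-like cells and 529, 335 and 525 CPM in the other classes (log2 fold change 1.09, SE 0.15, adjusted p = 4.25e-05 in edgeR). Ldha, which turns pyruvate into lactate, had 983, 539 and 739 CPM against 534, 356 and 518 CPM (0.73, SE 0.10, adjusted p = 5.45e-06 in edgeR). In both genes the 3 class values lay above the means of the other classes in all mice. Pgam1, Gapdh, Tpi1, Pgk1, Eno1 and Pkm, which carry the steps between the aldolase and pyruvate, were 0.81 to 0.99 higher on the log2 scale.

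The carriers at both ends of the pathway rose with the enzymes. Slc2a1, the main basal glucose importer, had 174, 55.1 and 70.6 CPM in lipid-associated-like cells, against 76.0, 35.0 and 45.6 CPM (log2 fold change 0.98, SE 0.17, adjusted p = 0.00052 in edgeR). Slc16a3, a lactate exporter, had 203, 102 and 135 CPM, against 125, 47.4 and 71.3 CPM (0.97, SE 0.19, adjusted p = 0.00144 in edgeR). Mif, a macrophage cytokine gene that hypoxia induces, was 1.08 higher and Ero1l, an oxidase of protein folding, 0.95 higher on the log2 scale.

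The hexokinases and the alpha subunit of HIF-1 did not pass the test in this class. Hk2, the inducible hexokinase that traps glucose in the cell, had 192, 154 and 197 CPM in lipid-associated-like cells and 208, 176 and 280 CPM in the other classes (log2 fold change -0.09, SE 0.13, adjusted p = 0.716 in edgeR). Hif1a had 132, 169 and 129 CPM against 139, 149 and 112 CPM (0.21, SE 0.13, adjusted p = 0.318 in edgeR), with 1 mouse below and 2 above the mean of their other classes. Pfkfb3, which makes the activator of phosphofructokinase, had a log2 fold change of 0.01, and Hk3, the hexokinase of myeloid cells, of -0.01. Of the 70 further pathway genes 57 could be fitted, and 12 were higher and 0 lower in this class, led by the collagen hydroxylase gene P4ha2 (1.89), Pgm2 (1.30), the glycogen synthase gene Gys1 (0.89) and Pygl (0.67), a glycogen phosphorylase, with the enolase gene Eno2 (1.06) higher in 2 of 3 mice.

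The 11 tumour epithelium markers summed to 25.7 to 41.5 CPM over the mice in the lipid-associated-like class, against 50.7 to 87.4 CPM in LYVE-1 resident-like cells and 35.7 to 70.2 CPM in the interferon-like one. The 23 members became 15 without mouse 2, and the count was 8 with cells of at least 1000 genes, 6 at a Leiden resolution of 0.5 and 4 without the mouse as a term.

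**Figure D2:**
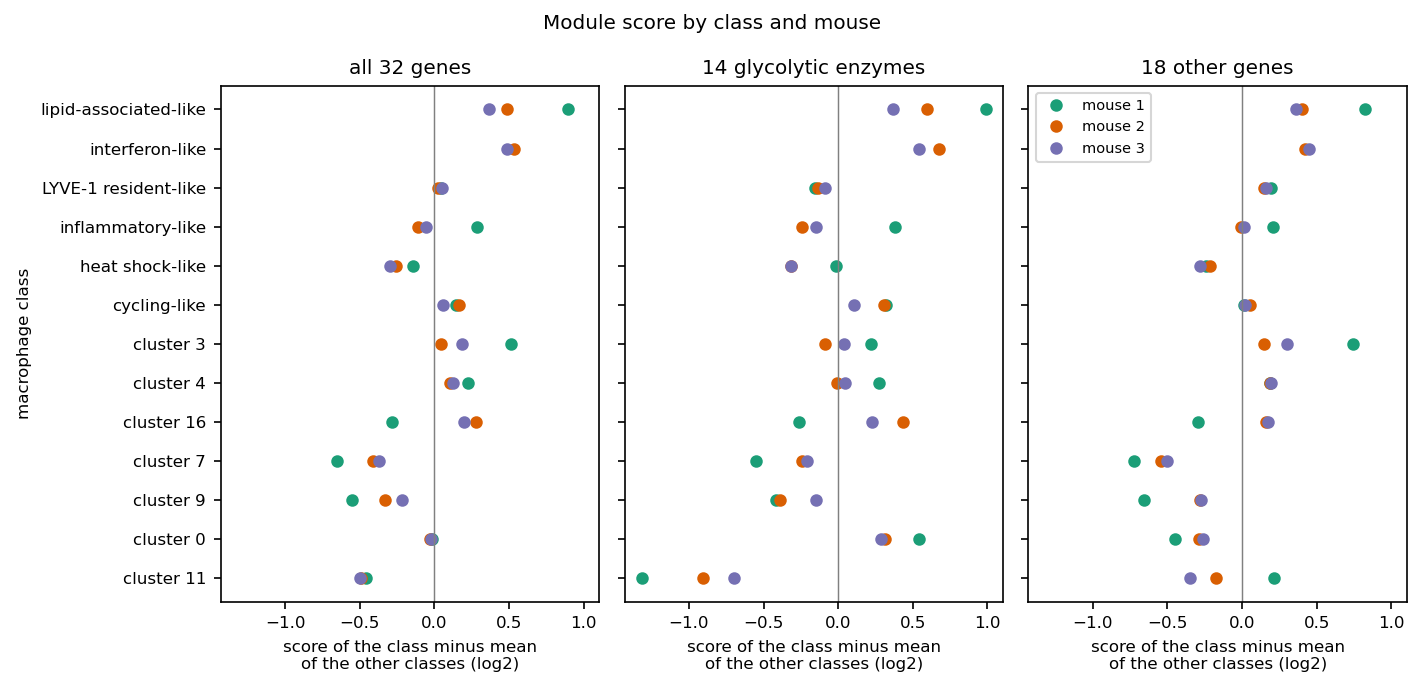
Module score of each macrophage class minus the mean of the other classes in the same mouse, in 3 panels for all 32 members, the 14 enzymes and the 18 other members; the score is the mean of log2(CPM + 10), each row is a class and each point a mouse. The lipid-associated-like and interferon-like classes stand highest over all members, and in LYVE-1 resident-like cells the enzymes lie below 0 and the other members above it.

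The module score, the mean of log2(CPM + 10) over the 32 members, puts the classes in order without a test. The plot of the score by class shows the lipid-associated-like class highest at 0.58 ± 0.28 (SD, n = 3 mice) above its other classes, with the mice between 0.365 and 0.895. The interferon-like class stood at 0.51 ± 0.03 (n = 2 mice), cluster 3 at 0.25 ± 0.24, cluster 4 at 0.15 ± 0.07 and the cycling-like class at 0.12 ± 0.06. At the low end, cluster 7 stood at -0.48 ± 0.15, cluster 11 at -0.48 ± 0.02, cluster 9 at -0.37 ± 0.17 and the heat shock-like class at -0.23 ± 0.08. The lead of the lipid-associated-like class rests on mouse 1, which has no interferon-like value: in mouse 2 the score itself was 6.68 in lipid-associated-like cells and 6.72 in interferon-like cells, and in mouse 3 it was 6.73 and 6.84. The 3 lowest clusters overlap in their spread. The LYVE-1 and inflammatory-like classes both had a score difference of 0.04, with an SD of 0.01 and 0.21. In LYVE-1 resident-like cells the 14 enzymes lay at -0.13 ± 0.03 and the 18 other members at 0.17 ± 0.03, while the inflammatory-like score differed between the mice, from -0.111 to 0.283.

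The interferon-like class (385 cells, marked by all 12 of its markers, Ifit1, Isg15 and Rsad2 among them) was the other marker-named class with members higher and none lower. In it 17 of 32 members were higher and 0 lower, where 5.69% and 0.453% of all tested genes were. The class had enough cells in mice 2 and 3 alone. At an unadjusted p under 0.05 the counts were 25 and 0, and DESeq2 called 15 and 0. All 5 enzymes of lower glycolysis were higher, and 4 of 6 genes of upper glycolysis, but 0 of the 4 oxygen-sensing genes.

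Ddit4, an inhibitor of mTORC1 signalling that hypoxia and other stresses induce, led the class with 39.9 and 31.7 CPM in the interferon-like cells of mice 2 and 3, against 9.32 and 11.7 CPM in their other classes (log2 fold change 1.97, SE 0.36, adjusted p = 0.000601 in edgeR). Pgk1, the first ATP-forming enzyme of the pathway, had 337 and 298 CPM against 129 and 174 CPM (1.28, SE 0.21, adjusted p = 0.000212 in edgeR). Ldha had 640 and 870 CPM against 348 and 507 CPM (0.95, SE 0.12, adjusted p = 1.64e-07 in edgeR). In these 3 genes both values of the class were above both means of the other classes. Bnip3 (1.32), the phosphofructokinase subunit gene Pfkp (1.20), Mif (1.12) and Slc2a1 (0.89) rose as well. Of the pathway list 8 genes were higher and 0 lower, led by the hexose carrier gene Slc2a6 (1.46) and by Pgm2 (1.45). With no mouse term 0 members passed in edgeR, with 14 at an unadjusted p under 0.05.

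In the LYVE-1 resident-like class (1279 cells, marked by Lyve1, Folr2, Cd163 and Timd4) the members split, in part by role. The called genes of glucose entry were all higher and those of lower glycolysis all lower. Of the 6 genes of upper glycolysis, 2 were higher and 2 lower. Hif1a, Pfkfb3, Pfkp, Hilpda, Ndrg1 and the 3 hexokinases were the 8 of 32 members that were higher. Gapdh, Eno1, Pkm and Ldha were among 6 that were lower. Of all tested genes 18.6% were higher and 4.41% lower, so the share of higher members is not far above the background. All 14 moved the same way in all 3 mice. The 14 enzymes had a median log2 fold change of -0.39 and the 18 other members of 0.12, with 0.13 over all tested genes. The split depends on the scaling: it was 10 higher and 4 lower with library totals, 8 and 9 with DESeq2's size factors, and 9 and 11 when clusters 0 and 11, which have few UMIs, were left out of the reference. Without mouse 2, and likewise without mouse 3, 6 members were higher and 0 lower in edgeR (13 and 11 in either direction at an unadjusted p under 0.05), and without mouse 1 the counts were 9 and 10.

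Hif1a had 262, 200 and 156 CPM in the LYVE-1 resident-like cells of mice 1, 2 and 3, against 127, 147 and 110 CPM in the other classes (log2 fold change 0.70, SE 0.12, adjusted p = 5e-05 in edgeR). Pfkfb3 had 112, 104 and 86.6 CPM, against 53.1, 55.6 and 50.7 CPM (1.00, SE 0.10, adjusted p = 1.22e-10 in edgeR). Ndrg1, a stress-responsive gene induced by hypoxia, had 68.7, 44.6 and 31.0 CPM, against 40.6, 30.1 and 16.2 CPM (1.37, SE 0.25, adjusted p = 0.000205 in edgeR). For Hif1a and Pfkfb3 no value of this class reached down to the means of the other classes, while for Ndrg1 the mice differed so much that these ranges overlap. All 3 hexokinases were higher, Hk3 by 0.58, Hk1 by 0.55 and Hk2 by 0.37 on the log2 scale. The class joins clusters 12 and 8, whose members differ in level. Hk3 averaged 29.6 ± 4.31 CPM in cluster 12 and 16.1 ± 2.57 CPM in cluster 8 (SD, n = 3 mice each). Pfkp averaged 85.3 ± 30.7 and 39.0 ± 8.02 CPM there. The means of the other classes were 14.6 CPM for Hk3 and 41.3 CPM for Pfkp. Some members went the other way, such as Aldoa with 244 ± 60.7 and 394 ± 113 CPM. These differences were not tested.

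The later enzymes went the other way. Pkm, the pyruvate kinase of most cells outside the liver, had 369, 308 and 380 CPM in LYVE-1 resident-like cells and 649, 460 and 494 CPM in the other classes (log2 fold change -0.56, SE 0.16, adjusted p = 0.0135 in edgeR). Eno1, an enolase, had 221, 110 and 93.5 CPM against 363, 178 and 128 CPM (-0.58, SE 0.15, adjusted p = 0.00667 in edgeR). In each mouse both genes were below the mean of the other classes, and for Pkm the class values and these means do not overlap. Gapdh (-0.45) and Ldha (-0.29) were lower too, Ldha at the edge of the threshold. In upper glycolysis Pfkl (-0.40) and Gpi1 (-0.32) were lower, while Pfkfb3 and Pfkp (0.54) were higher. Of the pathway list 7 genes were higher and 3 lower; Pdp1 (1.26) and Pdpr (1.21), which encode the phosphatase that activates pyruvate dehydrogenase and its regulatory subunit, were the largest that rose in every mouse, and Ccng2 (-0.61) and Pgm3 (-0.49) the largest that fell.

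**Figure D3:**
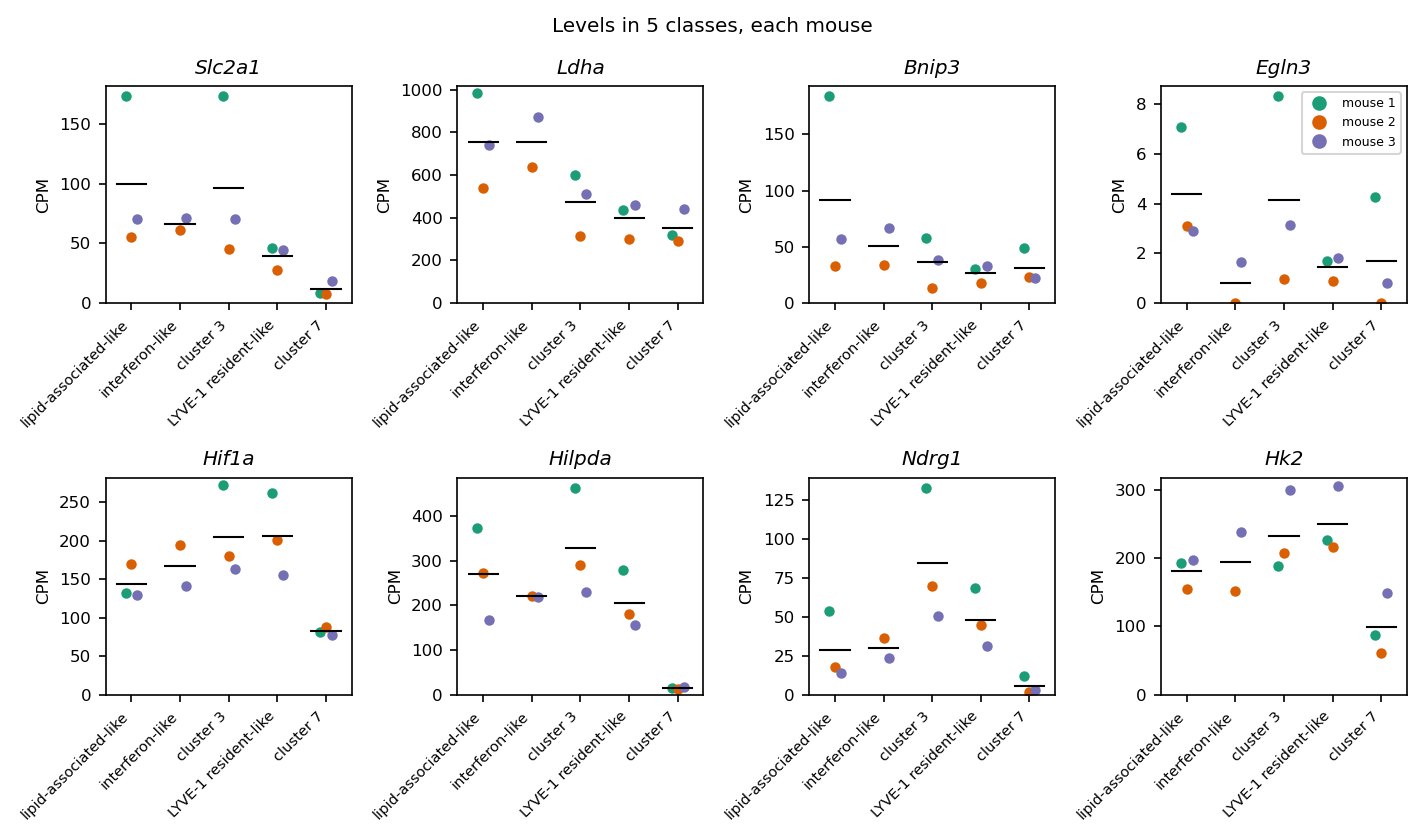
Levels (CPM, 1 panel per gene, linear axis) of 8 members in the lipid-associated-like, interferon-like, cluster 3, LYVE-1 resident-like and cluster 7 cells of each mouse; points are mice and lines are means. Ldha and Bnip3 are highest in the first 2 classes, Hif1a in LYVE-1 resident-like cells and cluster 3, and Hilpda and Slc2a1 lowest in cluster 7.

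Among the classes without a marker name, clusters 3 and 7 stood at opposite ends for the targets, and the genes given for numbered clusters were chosen after their values were seen. In cluster 3 (820 cells, led by Ccl7, Pf4 and S100a4) 12 members were higher and 0 lower in edgeR, with the same counts at an unadjusted p under 0.05, where 15.7% and 3.32% of all tested genes were. Ndrg1 had 133, 69.5 and 50.5 CPM in cluster 3 of mice 1, 2 and 3, against 34.8, 28.1 and 14.6 CPM in the other classes (log2 fold change 2.38, SE 0.27, adjusted p = 2.87e-07 in edgeR). Hilpda, which blocks the breakdown of stored fat in lipid droplets, had 465, 291 and 230 CPM against 245, 162 and 135 CPM (1.35, SE 0.11, adjusted p = 8.07e-12 in edgeR). Hif1a was 0.87 higher with 272, 179 and 164 CPM, against 126, 148 and 110 CPM. The rise took in no enzyme of lower glycolysis, and Ldha had 602, 313 and 513 CPM in cluster 3, against 569, 375 and 536 CPM (0.15, SE 0.11, adjusted p = 0.398 in edgeR).

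Cluster 7 (601 cells, led by Txnip, Dusp6 and Tifab) had 0 members higher and 15 lower, where 20.4% and 10.1% of all tested genes were. At an unadjusted p under 0.05 edgeR gave 0 higher and 19 lower. Hilpda had 13.8, 11.7 and 17.9 CPM in its cells, against 286, 185 and 153 CPM in the other classes (log2 fold change -3.67, SE 0.19, adjusted p = 1.51e-17 in edgeR). Slc2a1 had 8.50, 7.50 and 18.3 CPM against 91.0, 39.0 and 50.0 CPM (-2.16, SE 0.29, adjusted p = 2.84e-06 in edgeR). In both genes the values of the cluster are far from the means of the other classes. Mxi1, an antagonist of MYC, had a log2 fold change of -2.13, Slc16a3 of -1.57 and Hk2 of -1.26. The cells of cluster 7 had a median of 8899 UMIs. Vegfa, a further target of hypoxia-inducible factors outside the members, averaged 4.73 CPM in it against 145 CPM in the lipid-associated-like class. Of the 12 lipid-associated markers, Trem2, Cd63 and Apoe stood out in cluster 7. The list summed to 50769 to 69538 CPM over its mice, against 37670 to 53204 CPM in the lipid-associated-like class.

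In the inflammatory-like class (1715 cells, marked by Il1b, Nlrp3 and Cxcl2) 7 of 32 members were higher and 2 lower, where 17.8% and 4.15% of all tested genes were, so the share of higher members is near the background. Of the 9, 6 moved the same way in all 3 mice. Hilpda had 520, 262 and 284 CPM in its cells, against 240, 164 and 131 CPM in the other classes (log2 fold change 1.57, SE 0.10, adjusted p = 1.33e-14 in edgeR). Mxi1 had 236, 200 and 173 CPM against 146, 118 and 101 CPM (1.27, SE 0.10, adjusted p = 1.04e-12 in edgeR). In both genes every mouse was above the mean of its other classes. Slc2a1 (0.75) and Hk2 (0.68) were higher, Pfkp (-0.48) and Pfkfb3 (-0.38) lower. On the pathway list Slc2a6 (1.06) and Bhlhe40 (0.97), a repressor induced by hypoxia, were the largest that rose and Cxcr4 (-0.91), a chemokine receptor, and Insig2 (-0.41), a sterol sensor, the largest that fell. The split was 4 higher and 4 lower both with library totals and with DESeq2's size factors, and 5 and 0 without mouse 3. The class joins clusters 10 and 2, whose members differ in level: Pkm averaged 568 ± 245 CPM in cluster 10 and 277 ± 44.1 CPM in cluster 2, and Mif 402 ± 260 CPM and 180 ± 83.3 CPM (SD, n = 3 mice each), a difference that was not tested.

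The heat shock-like class (899 cells, marked by Hspa1a, Dnajb1 and Hsph1) had 1 member higher and 6 lower, where 10.6% and 3.65% of all tested genes were. Pfkfb3 had 85.0, 93.6 and 73.9 CPM in its cells, against means of 55.6, 56.5 and 51.8 CPM in the other classes (log2 fold change 0.79, SE 0.12, adjusted p = 4.35e-06 in edgeR), without overlap with these means. Mxi1 had 48.6, 52.4 and 42.5 CPM, against 163, 130 and 112 CPM (-1.19, SE 0.14, adjusted p = 7.38e-08 in edgeR), and Pfkp (-1.30), Slc16a3 (-0.95), Hk3 (-0.67), Hilpda (-0.64) and Hif1a (-0.45) were lower as well. The pathway list had 6 higher, led by Cxcr4 (0.88) and Gyg (0.78), the primer of glycogen synthesis, and 1 lower, Slc2a6 (-1.42). The 7 members became 14 without mouse 1, and 4 without mouse 2 or mouse 3.

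In the cycling-like class (958 cells, marked by Mki67 and Top2a) few members were called: 1 was higher and 3 lower, where 20.4% and 6.66% of all tested genes were. The class joins clusters 15 and 6, whose members differ in level. Ldha averaged 533 ± 101 CPM in cluster 15 and 770 ± 204 CPM in cluster 6, and Pkm 565 ± 122 and 762 ± 171 CPM (SD, n = 3 mice each). Some members went the other way, such as Hk2 with 187 ± 44.3 and 165 ± 73.7 CPM. These differences were not tested. Gapdh had 2559, 1747 and 1616 CPM in cycling-like cells, against 1892, 1246 and 1277 CPM in the other classes (log2 fold change 0.43, SE 0.15, adjusted p = 0.0323 in edgeR), and Hif1a had 90.7, 129 and 95.2 CPM against 143, 153 and 115 CPM (-0.39, SE 0.14, adjusted p = 0.0298 in edgeR). Bnip3l, a relative of Bnip3 in mitophagy, fell by 0.30 on the log2 scale. On the pathway list 6 genes were higher, led by Slc16a1 (0.60), a carrier of lactate and pyruvate, and Sap30 (0.47), and 1 was lower, Arnt (-0.49), the partner subunit of the hypoxia-inducible factors. With library totals the members split as 6 higher and 1 lower, and without mouse 1 as 6 and 3. Without mouse 2 or mouse 3, 0 members passed in edgeR, with 4 at an unadjusted p under 0.05 each time.

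The other 5 clusters showed partial sets. Cluster 16 (476 cells, led by Retnla, Lyz1 and Ccl24) had 6 of 32 members higher and 0 lower in edgeR (10 and 1 at an unadjusted p under 0.05). Of all tested genes 17% and 6.03% were, so the share of higher members is near the background. Pfkp had 144, 148 and 84.3 CPM in cluster 16, against 36.9, 39.4 and 29.1 CPM in the other classes. Cluster 4 had 3 higher and 0 lower in edgeR, also at an unadjusted p under 0.05 (2.31% and 0% of all tested genes), namely Hilpda, Pfkfb3 and Mxi1, and cluster 9 had 0 higher and 3 lower (2.6% and 0.97%), namely Hilpda, Mxi1 and Hk2, with 0 higher and 4 lower at an unadjusted p under 0.05 in edgeR. The last 2 clusters have few UMIs, with medians of 1976 per cell in cluster 0 and 1734 in cluster 11. Cluster 0 had 9 higher, all enzymes but Mif, and 5 lower (10.6% and 9.58%), and cluster 11 had 2 higher and 11 lower (4.06% and 14.5%). In cluster 11 Gapdh (-2.59), Mif (-2.57) and Pgk1 (-2.54) were the lowest, while Hk2 and Mxi1 (1.32) were higher, and 8.34% of its UMIs were mitochondrial in the median cell.

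Over the classes of a mouse, the members differed in how closely they followed the mean of the other 31. The Spearman correlation, taken within each mouse over 12 or 13 classes and given as a description, had a median over the mice of 0.81 for Ldha, 0.79 for Ddit4, 0.72 for Pgk1 and 0.71 for Pkm. It was -0.01 for Pfkfb3, 0.06 for P4ha1, 0.08 for Hk2, 0.12 for Epas1, 0.15 for Pdk1 and 0.23 for Mxi1. Low counts can lower such a value, and their part here was not tested. Epas1 and Pdk1 had 299 and 800 UMIs in all, Hk2 31854 and Pfkfb3 7670. Clusters 0 and 11, with few UMIs per cell, entered the correlation with the same weight as the other classes. Pfkfb3 was highest in the LYVE-1 resident-like class, at 101 ± 13.1 CPM (SD, n = 3), and lowest in cluster 0 at 13.9 ± 13.9 CPM. Hk2 was highest in cluster 11 at 611 ± 120 CPM and lowest in cluster 9 at 90.4 ± 57.0 CPM.

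Hif1a RNA was highest outside the class with the most members called higher. It averaged 206 ± 53.5 CPM in LYVE-1 resident-like cells and 205 ± 58.7 CPM in cluster 3, against 143 ± 22.3 CPM in the lipid-associated-like class (SD, n = 3 each), while its lowest mean, 62.8 CPM, was in cluster 0. Bnip3 was highest where Hif1a was in the middle of its range, at 91.4 ± 81.4 CPM in lipid-associated-like cells. Outside the lists, genes of at least 20 CPM whose level followed the module score closely over the 38 sums of a mouse and a class included Higd1a (Spearman 0.84), which encodes a mitochondrial protein and is a hypoxia marker here, Psmd8 (0.80), Lrrc59 (0.80) and Capg (0.78), the last of which was used in clustering. The choice was made among 4898 genes.

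The mice differed in level as well. Over all macrophages of a mouse, 26 of the 32 members were highest in mouse 1, 4 in mouse 2 and 2 in mouse 3, and 23 were lowest in mouse 2. Bnip3 had 61.7, 18.4 and 36.1 CPM in mice 1, 2 and 3, while P4ha1 had 59.7, 59.0 and 62.8 CPM. The ratio of the highest to the lowest mouse ran between 1.07 for P4ha1 and 4.01 for Egln3. Mouse 1 also had the fewest cells and the largest share of barcodes over the mitochondrial limit, and their part in these levels was not tested.

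**Figure D4:**
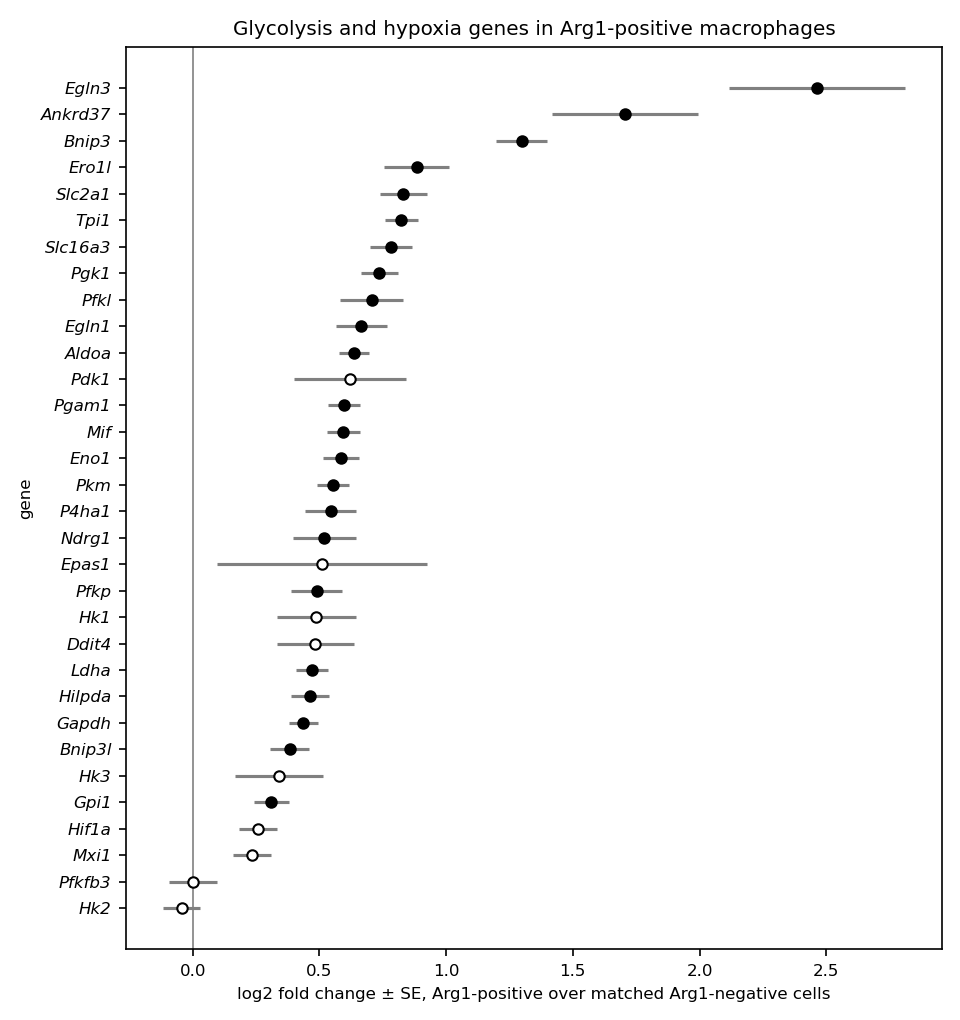
Log2 fold change of each member in Arg1-positive over matched Arg1-negative macrophages, with its SE; filled points passed an adjusted p of 0.05 in edgeR. Egln3 (2.46), Ankrd37 (1.71) and Bnip3 (1.30) lie farthest to the right, and Hk2 and Pfkfb3 lie at 0 within their SE.

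Arg1, which encodes arginase and is induced in hypoxic macrophages, is not a member, and it offered a comparison within the classes that was added after the class results were known. Cells with at least 1 Arg1 UMI (55, 45 and 299 in mice 1, 2 and 3) were set against Arg1-negative cells matched on mouse, class and UMIs (158, 135 and 897). The members were higher in the Arg1-positive cells: 23 of 32 passed the test and 0 were lower, where 0.858% and 0.204% of the 9789 tested genes were. At an unadjusted p under 0.05 the counts were 28 and 0, and DESeq2 called 18 higher. The calls took in 11 of the 14 enzymes and 12 of the 18 other members, and the median log2 fold change was 0.55 over the members and -0.005 over all tested genes.

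The largest rises were again in the sensors and targets. Egln3 had 15.6, 6.51 and 5.62 CPM in the Arg1-positive cells of mice 1, 2 and 3, against 2.14, 0.667 and 1.31 CPM in Arg1-negative cells (log2 fold change 2.46, SE 0.35, adjusted p = 0.000325 in edgeR). Ankrd37 had 24.2, 7.16 and 9.41 CPM against 3.06, 3.34 and 3.61 CPM (1.71, SE 0.29, adjusted p = 0.00375 in edgeR), and Bnip3 had 123, 52.1 and 81.1 CPM against 50.8, 17.1 and 35.2 CPM (1.30, SE 0.10, adjusted p = 3.64e-07 in edgeR). For all 3 genes the Arg1-positive values lay above every Arg1-negative value. Ero1l (0.88), Slc2a1 (0.83), Slc16a3 (0.78) and Egln1 (0.67), the hydroxylase that sets the oxygen threshold of HIF-1, followed.

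Among the enzymes Tpi1, which interconverts the triose phosphates, had 592, 423 and 446 CPM in Arg1-positive cells, against 328, 225 and 268 CPM in Arg1-negative cells (log2 fold change 0.82, SE 0.07, adjusted p = 3.64e-07 in edgeR). Ldha had 780, 604 and 715 CPM against 518, 441 and 545 CPM (0.47, SE 0.06, adjusted p = 0.000199 in edgeR). Neither gene's groups overlap. Pgk1 (0.74), Pfkl (0.71), Aldoa (0.64), Pgam1 (0.60), Eno1 (0.58), Pkm (0.55), Pfkp (0.49), Gapdh (0.44) and Gpi1 (0.31) were higher too, and of the 54 further pathway genes that could be fitted 4 were higher and 0 lower: Eno2 (1.42), Pgm2 (0.81), Pygl (0.74) and P4hb (0.39).

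The hexokinases and Pfkfb3 did not pass here either. Hk1 had a log2 fold change of 0.49 (SE 0.16) and was higher in 3 of 3 mice, and Hk3 had 0.34 (SE 0.17), higher in 2 of 3. Hk2 had 212, 159 and 290 CPM in Arg1-positive cells, against 211, 181 and 285 CPM in Arg1-negative cells (log2 fold change -0.04, SE 0.07), and Pfkfb3 had 81.2, 61.2 and 57.1 CPM against 71.0, 67.0 and 58.1 CPM (0.00, SE 0.10). Both sets of cells overlap fully in these genes. Hif1a had 240, 203 and 144 CPM against 180, 165 and 132 CPM (0.26, SE 0.07, adjusted p = 0.138 in edgeR), higher in 3 of 3 mice without passing the threshold.

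**Figure D5:**
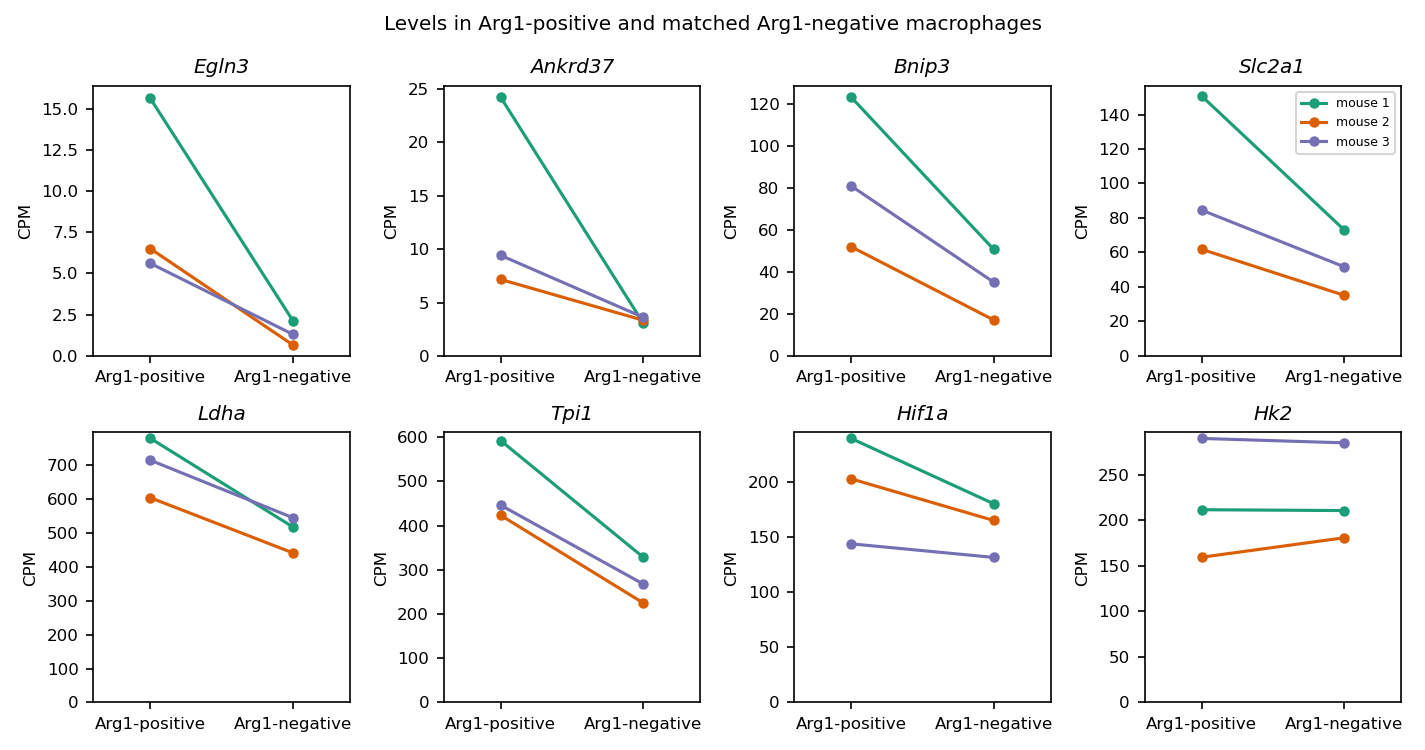
Levels (CPM, linear axis, 1 panel per gene) of 8 members in Arg1-positive cells (left) and matched Arg1-negative cells (right), with a line joining the 2 values of a mouse. Egln3, Ankrd37, Bnip3, Slc2a1, Ldha and Tpi1 fall to the right in all 3 mice, while Hk2 is level or crosses.

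Other lists moved with Arg1 as well. The 11 tumour epithelium markers summed to 38.3, 47.5 and 65.7 CPM in Arg1-positive cells of mice 1, 2 and 3, against 41.6, 41.8 and 65.0 CPM in Arg1-negative cells, with none of them called, and the 8 lineage markers to 12132, 15625 and 18307 CPM against 13161, 16126 and 18908 CPM. Of the 6 neutrophil markers, the 4 with UMIs in these cells summed to 16.4, 31.9 and 9.41 CPM against 3.98, 0.890 and 2.72 CPM. Most of the sum was S100a8, which was called higher, and Mmp8 (10.2, 22.1 and 2.13 CPM in Arg1-positive cells), which had too few counts to be fitted. S100a9 had 0 CPM in the Arg1-positive cells of every mouse. Among 8 monocyte markers Chil3 and Hp were called higher. The sort had removed Ly6G+ cells, the surface type of neutrophils. Of the 10 hypoxia markers Fam162a (0.58) and Higd1a (0.45) were called higher. Of the lipid-associated markers Lgals3 (0.44) and Cstb (0.26) were called higher, and of the pericyte markers Cspg4 (1.75), which had 0 CPM in the Arg1-positive cells of mouse 1. The 12 lipid-associated markers, with Spp1 (1.69, SE 0.45) not called, summed to 38567, 38274 and 45466 CPM against 33065, 34517 and 43459 CPM in Arg1-negative cells. The 7 MHC class II markers summed to 14497, 20137 and 20099 CPM against 25761, 26943 and 23215 CPM. Called lower were the inflammatory markers Tnf (-0.61), Ccl4 (-0.40) and Cd83 (-0.35), the interferon markers Isg15 (-0.59) and Rsad2 (-0.82), the dendritic cell marker Ccr7 (-1.80), H2-DMa (-0.35) of the MHC class II list, Ighm (-0.34) of the B cell list and Clec10a (-0.32) of the LYVE-1 list. The part of these markers in the members' result was not tested. The share of cells with an Arg1 UMI ran between 0% in cluster 11 and 8.37% in cluster 4, with 4.63% in the lipid-associated-like class (95% exact interval 3.58% to 5.89%), but 10 of the 56 tumour epithelium-like cells (17.9%, 8.91% to 30.4%) held one at a lower median of 4275 UMIs, so the share is not read as macrophage expression. Without the mouse as a term 0 members passed in edgeR, with 14 at an unadjusted p under 0.05.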

How the data were processed

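Sorted macrophages of 3 tumours, 1 per mouse, were profiled as 1 library each. Per the submitters' processing notes, Cell Ranger 3.0.2 and build mm10 were used, and the deposited matrices hold UMI counts per gene and cell, not normalized. Cells needed 500 or more genes and no more than 15% of UMIs from mitochondrial genes. They were clustered in scanpy 1.11.5 (2000 variable genes chosen within mice, 30 components, 15 neighbours, Leiden resolution 1.0) without the members, the 70 pathway genes, ribosomal or mitochondrial genes. The main values keep all doublets, and removal by an expected rate of 0.8% per 1000 cells is an alternative. A class was named from at least 5 markers of a list that no other list equalled in count, with further conditions on the leading genes and on UMIs per cell. Clusters that missed any condition kept a number, also where 5 or more markers of a list stood out. Counts were summed per mouse and class (at least 10 cells, at least 2 mice; 38 sums) and tested with edgeR 4.0.16 (TMM, filterByExpr, quasi-likelihood F test, mouse as a term, Benjamini-Hochberg over 9278 genes not used in clustering, threshold 0.05); DESeq2 1.42.0 was an alternative. The mice carry the same replicate numbers in every class because the sums of a mouse come from 1 library, so the mouse is the block. A design written for a hypoxia-like class was applied to the lipid-associated-like class, since no class took that name. In named classes the text names members that passed with the same sign in every mouse, at most 12 higher and 6 lower, and from the pathway list 4 or 2 each way. Arg1-positive cells were compared with up to 3 matched cells each by the same test, a comparison added after seeing the data, as were its alternatives and the fit without Arg1-positive cells. The scripts were tested on simulated counts, where false calls in the Arg1 comparison came out somewhat above the nominal rate. Of the 5 genes whose profile was most like the module score (Spearman, at least 20 CPM), 1 is not reported here. Members and gene lists were chosen with earlier results of these data known. Levels are CPM and are not compared between genes. Intervals are exact (Clopper-Pearson) and, like all counts here, cover counting error only.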

Additional observations from a re-analysis of the deposited data

How the results depend on the processing

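Over the class counts, the omnibus count, the lipid-associated-like score and the Arg1 comparison, 129 recomputed values kept their size and 46 moved; of single-gene values 1326 kept their call, 368 lost it and 4 reversed. With cells of at least 1000 genes the lipid-associated-like count was 8 (main 23) and Hilpda in the heat shock-like class reversed to 0.22. With at most 8% mitochondrial UMIs the counts were 4 in the heat shock-like (main 7), 5 in the inflammatory-like (main 9) and 3 in LYVE-1 resident-like cells (main 14), and Insig2 in the inflammatory-like class (0.58) and Gpi1 (0.11) and Pgm3 (0.65) in LYVE-1 resident-like cells reversed. With doublets removed the cycling-like count was 11 (main 4) and the LYVE-1 count 6. At resolution 0.5 the lipid-associated-like count was 6 and its score 0.188 (main 0.58), and the heat shock-like class gave no value; at 1.5 the heat shock-like count was 12. With 4000 variable genes the heat shock-like count was 4 and the LYVE-1 count 5. With hypoxia markers held out of clustering the cycling-like count was 0 in edgeR (4 at an unadjusted p under 0.05; DESeq2 gave 4 in the main clustering) and the LYVE-1 count 9. With the members allowed in clustering the counts were 2 (cycling-like), 5 (inflammatory-like) and 7 (LYVE-1). With clusters and sums taken from separate UMIs they were 10 (cycling-like), 11 (heat shock-like) and 8 (LYVE-1). Library totals gave 7 in the cycling-like class. Without a filter on low counts the counts were 7 (cycling-like), 11 (heat shock-like), 14 (inflammatory-like) and 22 (LYVE-1). With 20 cells required in every mouse they were 8 (cycling-like) and 14 (inflammatory-like), without the low-UMI classes as reference 11 (heat shock-like), and without Arg1-positive cells 8 (cycling-like) and 16 (inflammatory-like). Without the mouse as replicate block the counts were 0 (cycling-like, 2 at an unadjusted p under 0.05), 3 (heat shock-like), 2 (inflammatory-like), 0 (interferon-like, 14 unadjusted), 4 (lipid-associated-like), 3 (LYVE-1) and 0 (Arg1 comparison, 14 unadjusted). Leaving out 1 mouse in turn gave 0 to 9 (cycling-like), 4 to 14 (heat shock-like), 5 to 10 (inflammatory-like), 15 to 23 (lipid-associated-like), 6 to 19 (LYVE-1), 25 to 31 (omnibus) and 18 to 21 (Arg1 comparison), with the score between 0.425 and 0.714; the interferon-like class gave 25 without mouse 1 and no value otherwise. The causes of these moves were not tested. Of the members, Egln3 (216 UMIs in all), Epas1 (299), Ankrd37 (496) and Pdk1 (800) are limited by depth.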
